A study of Mus musculus with 30 samples.

Results

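Insulin was compared with vehicle in mouse liver at the first of 5 numbered sampling points, in 6 of the 30 libraries of the series. The libraries were chosen by treatment and point alone: 3 from mice given insulin and 3 from mice given phosphate-buffered saline (PBS), all labelled point 1. The insulin mice received human insulin at 0.7 U/kg into the peritoneum, and the PBS mice the same kind of injection without insulin. All were C57BL/6J, an inbred laboratory strain, aged 10 weeks, and had fasted for 12 to 16 h, so both groups carry the fast and an injection. RNA came from the left liver lobe and was selected for poly(A) tails. The labels number the points 1 to 5 within a period of 4 h without giving minutes, so no time after injection and no uninjected baseline is assumed for point 1. The series states biological triplicates, and the labels do not name the animal behind each library, so the p-values measure the spread between libraries.

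In the fasted liver, glucagon, acting through CREB, and glucocorticoids, acting through the glucocorticoid receptor, maintain the genes of gluconeogenesis and amino acid breakdown. Insulin acts through its receptor, the Irs adaptors and Akt, which keeps Foxo transcription factors out of the nucleus and lowers Foxo targets such as Pck1, G6pc and Igfbp1. It also raises Srebf1, the gene for the main regulator of fatty acid synthesis.

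Values were FPKM, fragments scaled by transcript length and library depth. A gene was tested when 3 or more of these 6 libraries reached 1 FPKM, and 12075 of 29117 genes met that. Differences are insulin minus PBS on the log2(FPKM + 1) scale with their standard error (SE), and understate the change of low genes. Sequencing depth, inferred from the spacing of low values, was 28.3, 21.4 and 32.4 M reads in the insulin libraries and 38.1, 32.1 and 20.5 M in the PBS libraries. The insulin libraries were run on sequencing lanes 1 and 2 and the PBS libraries on lanes 3, 4 and 5, per the labels, and effects of lane and of treatment cannot be told apart. The 10 most abundant genes held 25.8% of the summed FPKM in insulin replicate 1, against 18.9% and 19.1% in the other insulin libraries and 17.2% to 19.8% in the PBS libraries. Insulin replicate 1 stood apart at points 2 to 5 as well (24.4% to 26.3%, against 16.3% to 20.4% in the other libraries of those points). Libraries correlated as closely across the treatments (r = 0.970 to 0.979 over the genes tested) as within them (0.971 to 0.978). All 9 hepatocyte markers were at 1 FPKM or more in some library, and their summed level overlapped between insulin (40869 to 52469 FPKM) and PBS (46426 to 51178 FPKM). Summed markers of Kupffer, sinusoidal endothelial and stellate cells overlapped as well. The summed levels of 10 pericentral hepatocyte markers did not, at 4462 to 5179 FPKM with insulin and 5369 to 5533 FPKM with PBS. These sums did overlap after the median-ratio scaling used below. Of 9 tested members 3 lay wholly lower and 0 wholly higher, beside 6.53% and 2.67% of all genes. Their differences ran from -0.45 to 0.31. In bulk tissue, fewer cells of a type and less RNA per cell cannot be told apart.

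A single transcript, Lpin1, passed the test, and most genes next to it in order of p were lower with insulin. Lpin1 was 4.18 times as high in PBS as in insulin liver. The metallothionein genes Mt1 and Mt2 differed by a similar factor (3.92 and 3.96), the clock gene Per1 by 2.15 and the fasting regulator Klf15 by 1.58, all lower with insulin and all short of the threshold. Of the textbook insulin targets, Pck1 lay wholly lower by a narrow gap as deposited (1114 to 1224 FPKM with insulin, 1239 to 1736 FPKM with PBS). Its groups overlapped after median-ratio scaling. The groups of G6pc, Igfbp1, Irs2 and Srebf1 overlapped as deposited. In limma's test 1 of 12075 genes (0.00828%) reached an adjusted p below 0.05, none of them higher with insulin. Without adjustment, 803 genes (6.65%) were lower and 167 (1.38%) higher at p below 0.05. The 3 insulin values lay wholly below the 3 PBS values in 788 genes (6.53%) and wholly above them in 322 (2.67%). The median difference over all genes tested was -0.06, and 7556 genes had a difference below 0. The excess of lower genes rested on the authors' scaling: after median-ratio scaling, which centres the median at 0.00, 652 genes lay wholly below and 716 wholly above PBS, and 534 were lower and 532 higher at an unadjusted p below 0.05. The count of called genes depended on single libraries: leaving out insulin replicate 2 or 3 or PBS replicate 2 gave 0, leaving out insulin replicate 1 or PBS replicate 3 gave 3, and leaving out PBS replicate 1 gave 74.

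**Figure D1:**
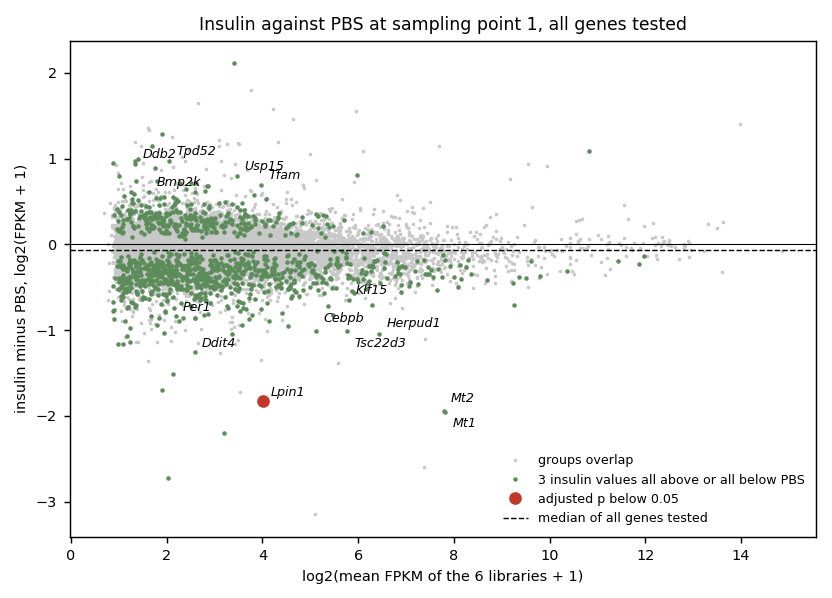
Each point is 1 of the 12075 genes tested at sampling point 1, with its mean level over the 6 libraries on the horizontal axis (log2 scale) and the difference insulin minus PBS on the vertical axis, coloured by whether the groups overlap. Lpin1 at -1.83 is the gene past the adjusted threshold, and the non-overlapping genes are denser below 0 (788) than above it (322), an excess absent after median-ratio scaling (652 and 716).

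Lpin1 encodes lipin-1, a phosphatidate phosphatase of triglyceride synthesis that is also known as a partner of the coactivator PGC-1 alpha in fasted mouse liver. It measured 8.10, 5.44 and 4.09 FPKM in the insulin livers and 37.7, 21.9 and 14.0 FPKM in the PBS livers. The highest insulin library was below the lowest PBS library, and in FPKM the PBS libraries spread more widely than the insulin ones. The means were 5.88 ± 2.04 FPKM with insulin and 24.6 ± 12.1 FPKM with PBS (SD, n = 3 each), and the difference was -1.83 ± 0.28 (SE; adjusted p = 0.00813, limma). An exact two-sided permutation test gave p = 0.1, the smallest that 3 against 3 allows. The call was lost when the 6 libraries were fitted alone (adjusted p = 0.718) and without insulin replicate 2, insulin replicate 3 or PBS replicate 2 (0.0816, 0.0921 and 0.0585), while the difference stayed between -1.47 and -2.16 under each library left out.

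Its relatives differed less or were scarcely detected. Lpin2 measured 43.2, 52.8 and 44.8 FPKM with insulin and 65.2, 57.2 and 62.7 FPKM with PBS. The groups did not overlap, but the difference of -0.39 ± 0.15 missed the threshold (adjusted p = 0.536). Lpin3 averaged 0.851 ± 0.123 FPKM with insulin and 0.780 ± 0.069 FPKM with PBS, under the level required for testing. Of 13 tested genes of phosphatidate phosphatases and triglyceride synthesis, 3 lay wholly lower with insulin (Lpin1, Lpin2 and the acyltransferase Gpat4) and 0 wholly higher. Over all genes tested 6.53% lay wholly lower and 2.67% wholly higher. The median difference was -0.18 against -0.06 over all genes. Dgat1 and Dgat2, which add the last acyl chain, had differences of -0.22 and -0.24 with overlapping groups.

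The metallothioneins Mt1 and Mt2 are small cysteine-rich proteins that bind zinc, and both zinc and glucocorticoids are known inducers. Mt1 measured 87.4, 129 and 58.1 FPKM with insulin and 346, 500 and 230 FPKM with PBS. Mt2 measured 79.1, 133 and 53.4 FPKM with insulin and 368, 506 and 178 FPKM with PBS. In both genes replicate 2 was the highest and replicate 3 the lowest library of its treatment, and no insulin value reached the lowest PBS value. The differences were -1.96 ± 0.39 for Mt1 (adjusted p = 0.0943) and -1.95 ± 0.41 for Mt2 (adjusted p = 0.129), so neither passed. The transcripts are similar in sequence, and how reads were split between them was set by the authors' quantification. The zinc exporter Slc30a1, another target of the metal-responsive factor Mtf1, had interleaved groups (9.74, 9.40 and 11.8 FPKM with insulin, 9.08, 11.4 and 9.46 FPKM with PBS). Those of Mtf1 itself overlapped as well, at -0.16 ± 0.21. Of 11 tested genes of metallothioneins and zinc transport, Mt1 and Mt2 were the 2 without overlap, and the median was -0.12. Over all genes tested 6.53% lay wholly lower and 2.67% wholly higher.

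**Figure D2:**
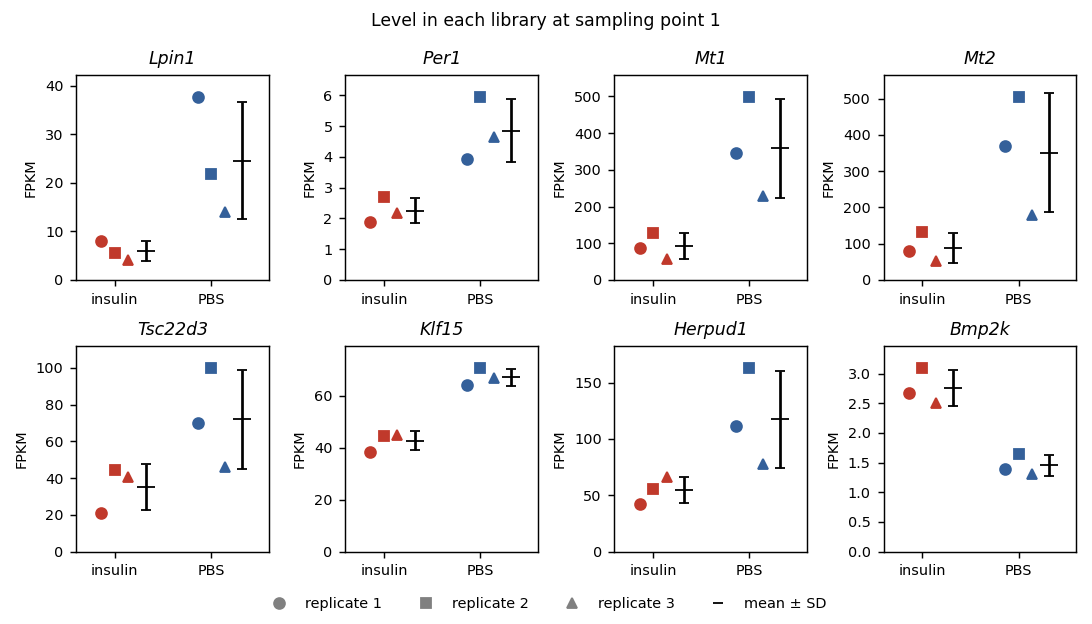
FPKM of 8 genes in each of the 6 libraries of sampling point 1, insulin in red on the left and PBS in blue on the right of each panel, with the replicate number as symbol and the mean ± SD in black. Insulin and PBS values do not overlap in any panel, Lpin1 spans 4.09 to 8.10 FPKM with insulin and 14.0 to 37.7 FPKM with PBS, and Bmp2k alone is higher with insulin.

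The sequences upstream of these 3 genes are shown because they had the largest differences among non-overlapping genes with a proper symbol, and because Mt1 and Mt2, neighbours on chromosome 8, had the same pattern. Each is the 250 bases before the gene's start in RefSeq on GRCm38.p6, written 5′ to 3′ on the gene's strand. Matches to either of 2 motifs are in capitals. GNACA and TGTNC with 3 bases between them are a loose glucocorticoid response element. TGCNCNC is a loose form of the core of the metal response element. Each was searched on both strands. Lpin1 is at chr12:16610967-16611216 on the minus strand, Mt1 at chr8:94178839-94179088 and Mt2 at chr8:94172368-94172617, both on the plus strand.
Lpin1: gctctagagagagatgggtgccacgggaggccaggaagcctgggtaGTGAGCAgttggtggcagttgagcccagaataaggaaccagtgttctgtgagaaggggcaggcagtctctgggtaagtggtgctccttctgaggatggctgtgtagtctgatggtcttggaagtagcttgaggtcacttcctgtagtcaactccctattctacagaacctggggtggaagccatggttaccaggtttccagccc
Mt1: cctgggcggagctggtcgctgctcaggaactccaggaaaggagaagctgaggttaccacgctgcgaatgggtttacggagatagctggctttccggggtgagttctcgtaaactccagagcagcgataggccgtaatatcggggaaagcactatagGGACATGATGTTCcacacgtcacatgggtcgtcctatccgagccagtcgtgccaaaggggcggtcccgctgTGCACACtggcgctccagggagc
Mt2: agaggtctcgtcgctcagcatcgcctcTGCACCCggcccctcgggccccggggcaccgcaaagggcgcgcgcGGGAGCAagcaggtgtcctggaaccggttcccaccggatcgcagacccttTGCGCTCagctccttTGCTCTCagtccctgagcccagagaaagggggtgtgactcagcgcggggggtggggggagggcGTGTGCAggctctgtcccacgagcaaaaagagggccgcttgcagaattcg
The window of Mt1 holds 1 match to each motif, that of Mt2 holds 5 to the metal motif and 0 to the other, and that of Lpin1 holds 1 to the metal motif and 0 to the other. The windows of Per1, Tsc22d3, Klf15 and Bmp2k were also searched and hold 0 matches to the glucocorticoid motif and 0 to 2 to the metal motif. Of 32851 such windows, 127 (0.387%) hold the glucocorticoid motif, 14590 (44.4%) at least 1 metal motif and 1529 (4.65%) at least 3. The metal motif is loose, short and common, a match is a run of letters and not a site, and sequence outside these windows was not searched.

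Targets of the glucocorticoid receptor were mostly lower with insulin. Of 19 tested members, 9 lay wholly below PBS, beside 6.53% of all genes tested, and 0 wholly above, beside 2.67%. At an unadjusted p below 0.05, 10 were lower, beside 6.65% of all genes. A difference below 0 was found in 17, beside 7556 of all 12075 genes, and the median was -0.45. The list had already stood out in earlier work on these data, so its count is a description. After median-ratio scaling 7 lay wholly below and 0 above, beside 652 and 716 of all 12075 genes, and the median was -0.36. Lpin1, Mt1, Mt2, Per1, Tsc22d3, Ddit4, Tat, Angptl4 and Pck1 were the 9 as deposited, of which Lpin1 alone passed the adjusted test. The groups of Tsc22d3 and Pck1 overlapped after median-ratio scaling. Tsc22d3, an anti-inflammatory leucine-zipper protein, measured 21.0, 44.3 and 40.5 FPKM with insulin and 69.8, 99.7 and 46.2 FPKM with PBS. Its groups were separated by a narrow gap, since PBS replicate 3 was close to insulin replicate 2, and the difference was -1.01 ± 0.25 (adjusted p = 0.28). Ddit4, an inhibitor of the growth kinase complex mTORC1, measured 1.64, 3.04 and 2.32 FPKM with insulin and 6.77, 12.6 and 3.60 FPKM with PBS (-1.26 ± 0.37; adjusted p = 0.478). PBS replicate 2 was the highest and PBS replicate 3 the lowest PBS library in Mt1, Mt2, Tsc22d3, Ddit4 and Herpud1, whereas Lpin1 was highest in PBS replicate 1.

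In the remaining targets of the receptor the groups overlapped. Cdkn1a, an inhibitor of the cell cycle, measured 4.82, 13.4 and 2.45 FPKM with insulin and 11.1, 14.2 and 15.1 FPKM with PBS, with insulin replicate 2 inside the PBS range. Its difference of -1.12 ± 0.42 and that of the transcription factor Klf9, -0.26 ± 0.12, had unadjusted p of 0.0145 and 0.0467 and missed the adjusted threshold (0.533 and 0.614). Fkbp5, a chaperone partner that restrains the receptor, measured 22.3, 20.1 and 13.6 FPKM with insulin and 19.4, 24.0 and 19.4 FPKM with PBS. Sgk1, Dusp1, Pdk4 and Tdo2 had differences of -0.03, 0.03, -0.04 and 0.05 with overlapping groups. The receptor gene Nr3c1 had 0.03 ± 0.12. Of 7 genes of the receptor and corticosteroid handling, 1 lay wholly higher with insulin and 0 wholly lower, beside 2.67% and 6.53% of all genes. It was Nr3c2, the mineralocorticoid receptor, at 2.79, 2.61 and 2.74 FPKM against 2.30, 1.78 and 1.81 FPKM with PBS (0.33 ± 0.16, adjusted p = 0.614). Hsd11b1, which regenerates active glucocorticoid in liver, had -0.14 ± 0.17.

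Per1, a repressor of the circadian clock that is also induced by glucocorticoids and by CREB, measured 1.89, 2.70 and 2.17 FPKM with insulin and 3.94, 5.96 and 4.64 FPKM with PBS. All insulin values were below the lowest PBS value, by -0.84 ± 0.16 (adjusted p = 0.0879). The other clock genes gave little sign of a common shift: of 14 tested, Per1 alone did not overlap, and the median was -0.08. Cry1 and Clock had differences of 0.27 and 0.26, Cry2 and Dbp of -0.38 and -0.57, all with overlapping groups. Among CREB targets 4 of 13 lay wholly lower (Per1, Tat, Ppargc1a and Pck1), beside 6.53% of all genes, 0 wholly higher, and the median was -0.12. Per1, Tat and Pck1 also count among the receptor targets, and Tat, Ppargc1a and Pck1 among the gluconeogenic genes below. The lists are therefore not separate evidence, and the groups of Pck1 overlapped after median-ratio scaling. Immediate early genes, which cAMP and growth factors induce within minutes, had 2 of 15 tested members wholly lower (6.53% of all genes were), Klf6 and Zfp36, 0 wholly higher, and a median of -0.21.

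Regulators and enzymes of gluconeogenesis were mostly lower too. Of 17 tested, 7 lay wholly below PBS (6.53% of all genes tested did) and 0 above, 10 were lower at an unadjusted p below 0.05 (6.65% of all genes), 16 had a difference below 0 (7556 of all 12075 genes) and the median was -0.31, but no member passed the adjusted test. After median-ratio scaling 7 lay wholly below and 0 above, beside 652 and 716 of all 12075 genes, and the median was -0.22. Pck1 overlapped under that scaling, so these 7 were not all the same genes. Klf15, a transcription factor that drives amino acid breakdown in fasting, measured 38.4, 44.5 and 44.8 FPKM with insulin and 64.0, 70.5 and 66.7 FPKM with PBS. Both groups were compact, with an SD of 3.62 FPKM with insulin and 3.27 FPKM with PBS, and the difference was -0.65 ± 0.13 (adjusted p = 0.108). Ppargc1a, the coactivator PGC-1 alpha, measured 1.55, 1.65 and 1.82 FPKM with insulin and 2.59, 2.55 and 2.46 FPKM with PBS, a clear gap but a small difference on this scale (-0.40 ± 0.15; adjusted p = 0.53). Tat, tyrosine aminotransferase, measured 394, 655 and 364 FPKM with insulin and 773, 699 and 752 FPKM with PBS, with insulin replicate 2 close to the PBS range (-0.70 ± 0.22; adjusted p = 0.495).

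Pck1, which commits carbon to gluconeogenesis, was 1224, 1168 and 1114 FPKM with insulin and 1239, 1405 and 1736 FPKM with PBS. The groups touched without overlapping, and the difference was -0.31 ± 0.16 (adjusted p = 0.623). They overlapped after median-ratio scaling. The aminotransferases Got1 and Gpt2 and the serine dehydratase Sds lay wholly lower, by -0.54, -0.44 and -0.55. Fbp1, Pcx, Gpt and the glucose-6-phosphate transporter Slc37a4 had differences of -0.31, -0.29, -0.39 and -0.39, and in each the groups overlapped. G6pc, the last enzyme of the pathway, measured 187, 207 and 118 FPKM with insulin and 223, 118 and 193 FPKM with PBS. The groups were interleaved, the difference was -0.05 ± 0.30, and its sign turned under several settings.

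Genes of the urea cycle and amino acid breakdown were also mostly lower, with fewer separated members. Of 21 tested, 3 lay wholly lower (Tat, Sds and the ornithine aminotransferase Oat), beside 6.53% of all genes, and 0 higher. At an unadjusted p below 0.05, 6 were lower, beside 6.65% of all genes, 19 had a difference below 0, beside 7556 of 12075, and the median was -0.30. The urea cycle enzymes Cps1 and Otc had differences of -0.07 and 0.01. Tat and Sds count in both lists, so the lists are not separate evidence. Sds is also a periportal and Oat a pericentral marker. The summed pericentral markers lay wholly lower with insulin as deposited but overlapped after median-ratio scaling, as given above. The periportal sums overlapped as deposited (1112 to 1295 FPKM with insulin, 1260 to 1419 FPKM with PBS). The part of zonation in these differences was not tested.

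**Figure D3:**
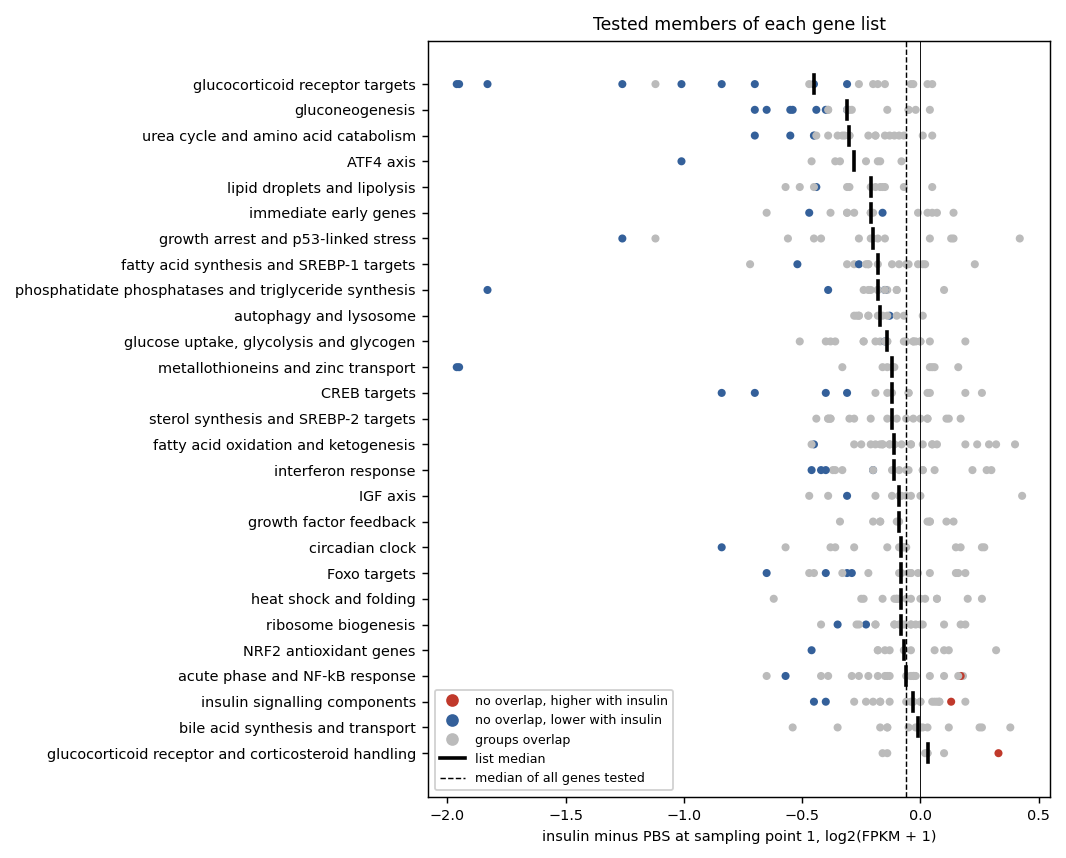
Each dot is a tested member of a gene list, placed by its difference insulin minus PBS at sampling point 1 (log2 scale) and coloured by whether the 3 insulin values lie wholly above, wholly below or within reach of the 3 PBS values. The list median is a black bar and the median of all genes a dashed line at -0.06. Glucocorticoid receptor targets (-0.45), gluconeogenesis (-0.31) and amino acid catabolism (-0.30) have the lowest medians, which median-ratio scaling moves to -0.36, -0.22 and -0.21.

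Of the textbook insulin targets, Pck1 lay wholly lower by a narrow gap, and only before median-ratio scaling, as given above. Igfbp1, Irs2, G6pc and Srebf1 overlapped between the groups. Igfbp1, a Foxo target that binds insulin-like growth factors, measured 109, 81.6 and 15.7 FPKM with insulin and 90.7, 51.2 and 84.0 FPKM with PBS. Insulin replicate 3 was far below the other 5 libraries, and the difference was -0.47 ± 0.55 (adjusted p = 0.838), turning to 0.36 without that library. Irs2, the adaptor that Foxo maintains in fasting, was 6.38, 4.20 and 2.16 FPKM with insulin and 3.82, 2.59 and 3.70 FPKM with PBS (0.19 ± 0.38). Srebf1 was 4.20, 4.72 and 6.78 FPKM with insulin and 3.84, 10.3 and 6.55 FPKM with PBS (-0.28 ± 0.24). In Srebf1 PBS replicate 2 was the highest library and the remaining 5 were interleaved. With 3 libraries a group and SEs of 0.24 to 0.55, differences of this size were not detectable, and absence of a response is not shown.

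The Foxo targets as a list had 4 of 18 members wholly lower, Klf15, Ppargc1a, Pck1 and Ccng2, 0 wholly higher and a median of -0.08, beside 6.53% of all genes wholly lower and 2.67% wholly higher. Klf15, Ppargc1a and Pck1 also count among the gluconeogenic genes, so this count is not separate evidence. The groups of Pck1 overlapped after median-ratio scaling. Genes of insulin signalling itself had 2 of 21 wholly lower, 1 wholly higher and a median of -0.03, close to those shares. The 2 were Foxo1, at 4.48, 4.24 and 3.80 FPKM with insulin and 6.82, 6.52 and 4.94 FPKM with PBS, and Foxo3, at 4.33, 5.29 and 4.90 FPKM with insulin and 7.44, 6.94 and 5.84 FPKM with PBS. Their differences, -0.45 ± 0.15 and -0.40 ± 0.14, missed the threshold (adjusted p = 0.53 and 0.509). The receptor Insr and the adaptor Irs1 had differences of -0.04 and 0.00. Lists of fatty acid synthesis (2 of 17 wholly lower, median -0.18), sterol synthesis (0 of 18, -0.12), fatty acid oxidation and ketogenesis (1 of 25, -0.11), glucose uptake, glycolysis and glycogen (1 of 21, -0.14) and bile acids (0 of 15, -0.01) had no member past the test, none wholly higher with insulin and few wholly lower, as among all genes (6.53%).

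Outside the metabolic lists, the genes lowest in p with separated groups included regulators of stress and signalling. Herpud1, an endoplasmic reticulum membrane protein of protein quality control, measured 42.6, 55.7 and 66.0 FPKM with insulin and 112, 163 and 77.7 FPKM with PBS (-1.05 ± 0.21; adjusted p = 0.103). The list of heat shock and folding genes, of which Herpud1 is not a member, had 0 of 16 members separated and the chaperone Hspa5 at -0.10. Cebpb, a bZIP transcription factor of the fasting and acute phase response, measured 20.8, 24.3 and 19.9 FPKM with insulin and 30.2, 61.8 and 46.9 FPKM with PBS (-1.01 ± 0.25; adjusted p = 0.305). Etnk2, an ethanolamine kinase of phospholipid synthesis, measured 55.1, 67.0 and 53.6 FPKM with insulin and 83.4, 114 and 92.2 FPKM with PBS (-0.71 ± 0.15; adjusted p = 0.133). In these 3 genes the PBS libraries spread more than the insulin libraries, and the groups did not overlap.

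The interleukin-6 receptor Il6ra measured 7.49, 6.74 and 7.08 FPKM with insulin and 10.0, 13.9 and 9.55 FPKM with PBS (-0.57 ± 0.13). Of 23 tested genes of the acute phase and NF-kB response, Il6ra alone lay wholly lower and Nfkbiz alone wholly higher, beside 6.53% and 2.67% of all genes. The list median of -0.06 equalled that of all genes. The translation kinase Mknk2 (-0.60), the actin-binding coronin Coro1b (-0.52) and the mitochondrial import subunit Timm17b (-0.72) were also among the 12 genes of lowest p that were wholly lower. Timm17b was 6.20, 6.12 and 6.23 FPKM with insulin and 12.5, 11.6 and 8.83 FPKM with PBS, so the insulin libraries agreed closely and the PBS libraries did not. These differences were not particular to point 1. At points 2 to 5 Coro1b had -0.35, -0.61, -0.78 and -0.63, and Timm17b -0.45, -0.72, -0.63 and -0.70. Both passed limma's adjusted test at points 3, 4 and 5. Mknk2 had -0.32, -0.36, -0.18 and -0.06 there, and Il6ra -0.36, -0.95, 0.00 and -0.30. Of 12 cytosolic ribosomal protein mRNAs, 4 lay wholly lower (Rps18, Rps14, Rps3 and Rplp0), beside 6.53% of all genes, and all 12 had a difference below 0, with a median of -0.24 at point 1 (-0.16 after median-ratio scaling) and -0.21 to -0.32 at points 2 to 5.

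The genes of lowest p that were wholly higher with insulin had differences of 0.32 to 0.97, and those wholly lower -0.52 to -1.96. Bmp2k, a kinase linked to bone morphogenetic protein signalling, measured 2.68, 3.09 and 2.50 FPKM with insulin and 1.40, 1.65 and 1.31 FPKM with PBS. All insulin values were above the highest PBS value, by 0.61 ± 0.11 (adjusted p = 0.0879), at a level of a few FPKM. Tpd52, a membrane trafficking protein, measured 2.11, 6.12 and 5.47 FPKM with insulin and 1.82, 1.54 and 1.64 FPKM with PBS, with insulin replicate 1 near the PBS range (0.97 ± 0.23; adjusted p = 0.193). Ddb2, which recognises ultraviolet damage in DNA, measured 2.17, 1.25 and 3.66 FPKM with insulin and 0.431, 0.517 and 1.17 FPKM with PBS (0.94 ± 0.24; adjusted p = 0.323). Tfam, a transcription factor that binds mitochondrial DNA, measured 19.8, 17.8 and 17.6 FPKM with insulin and 10.2, 12.1 and 10.7 FPKM with PBS (0.69 ± 0.19, adjusted p = 0.446). Its groups were compact and well apart, while the 13 mitochondrially encoded mRNAs had a median difference of -0.01 and 0 separated members.

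The other 8 of the 12 wholly higher genes of lowest p had differences between 0.32 and 0.80. They were the ATPase Ola1, the spliceosomal Sm protein Snrpg, the deubiquitinase Usp15, the Ral exchange factor Ralgps2, the zinc finger protein Zbtb24, Depdc7, the AMP-activated kinase subunit Prkaa2 and the thioredoxin-like Txndc9. Prkaa2, part of the energy sensor that restrains gluconeogenesis and lipid synthesis, was 11.3, 11.0 and 13.0 FPKM with insulin and 9.03, 9.94 and 8.64 FPKM with PBS (0.32 ± 0.10; adjusted p = 0.495). Its differences at points 2 to 5 were 0.23, 0.33, 0.39 and 0.38.

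**Figure D4:**
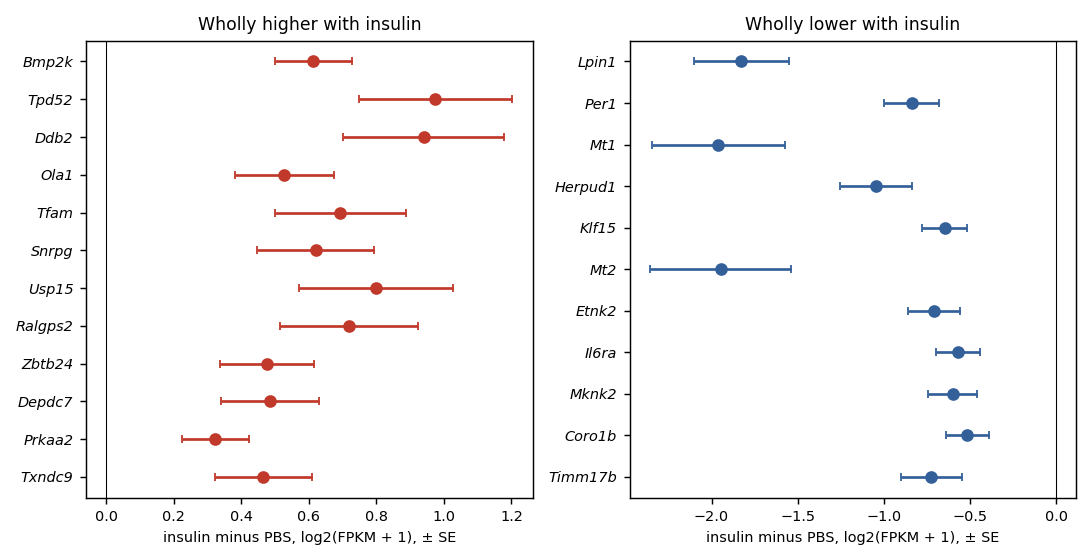
Differences insulin minus PBS at sampling point 1 (log2(FPKM + 1) scale, points with SE bars) for 12 wholly higher genes on the left and 11 wholly lower genes on the right, each ordered by p with the smallest at the top. The higher genes reach 0.97 (Tpd52) and the lower ones -1.96 (Mt1), and the horizontal scales of the 2 panels differ.

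The difference at point 1 was then set against the mean of the differences at points 2 to 5, which come from other libraries. In the same limma fit 112 genes (0.928%) departed from that mean, 72 (0.596%) with a more negative and 40 (0.331%) with a more positive difference at point 1. Against single points, 37 genes departed from point 2 (0.306%), 89 from point 3 (0.737%), 103 from point 4 (0.853%) and 134 from point 5 (1.11%). At each point the insulin libraries were on lanes 1 and 2 and the PBS libraries on lanes 3 to 5, and insulin replicate 1 was on lane 2 at points 1 to 4 and on lane 1 at point 5. The part of lane in these departures was not tested. The count fell to 52 without PBS replicate 1 of point 1, to 50 without insulin replicate 3 and to 63 without insulin replicate 2. Each PBS replicate number kept its lane over the 5 points, and insulin replicate 1 stood apart at every point, as given above. Libraries of the same treatment and number may thus not be independent across points, while the fit takes them as independent. Lane as a random effect covers this in part, and the replicate block joins both treatments.

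Lpin1 showed the departure in every setting tried. Its differences at points 1 to 5 were -1.83, 0.01, -0.18, 0.60 and 2.17, so insulin liver was lower at point 1 and higher at point 5, and the point 1 value was -2.48 ± 0.31 from the mean of the others (adjusted p = 7.75e-05, and 0.000913 at most over 15 alternatives). Its levels by point were 5.88, 50.2, 98.0, 124 and 181 FPKM with insulin and 24.6, 50.4, 110, 80.6 and 38.9 FPKM with PBS. Point 1 held the lowest level of both treatments, and the insulin level was the lower of the 2. Lpin2 had differences of -0.39, 0.02, -0.12, 0.54 and 0.98 and departed by -0.75 ± 0.17 (adjusted p = 0.0306), a call lost without a filter on low values and without insulin replicate 1 or 3 or PBS replicate 1 or 3 (up to 0.13 over the alternatives).

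Mt1 and Mt2 departed by -1.97 ± 0.43 and -2.20 ± 0.46 (adjusted p = 0.0226 and 0.0153). Their differences at points 2 to 5 ran from -0.51 to 0.50 for Mt1 and from -0.27 to 0.86 for Mt2. Mt1 averaged 91.4, 214, 388, 756 and 1119 FPKM at points 1 to 5 with insulin, and 358, 325, 454, 614 and 842 FPKM with PBS. The lowest level with insulin was thus at point 1, while the PBS level at point 1 did not differ from the other PBS points beyond the spread (-0.55, adjusted p = 0.415). The calls of both genes were lost without a filter on low values and without insulin replicate 3, PBS replicate 1 or PBS replicate 2, with adjusted p up to 0.126 for Mt1 and 0.0925 for Mt2.

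**Figure D5:**
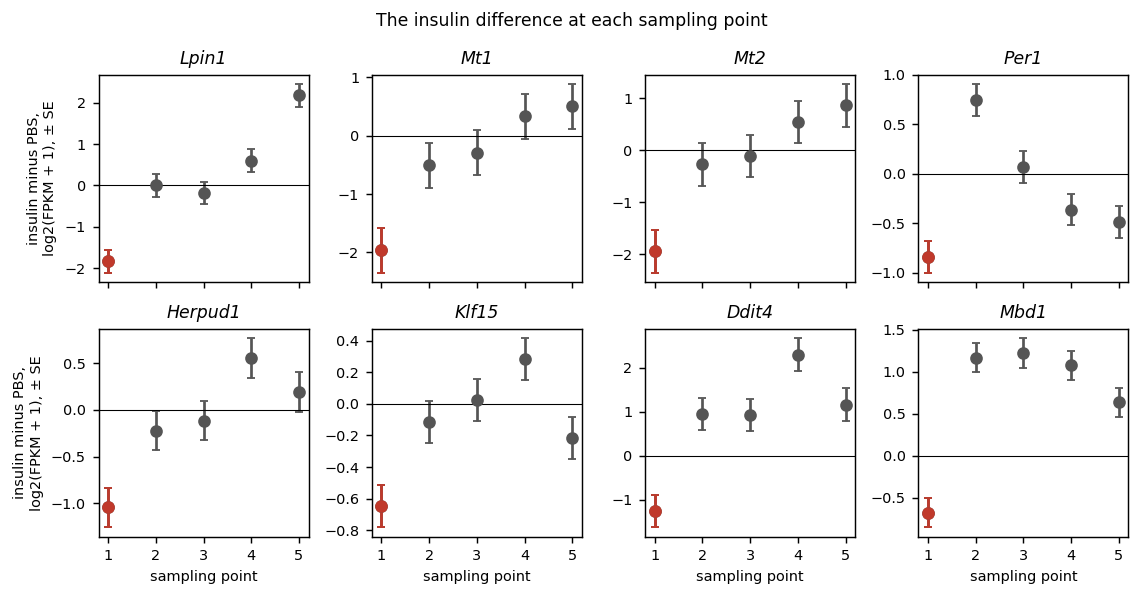
Difference insulin minus PBS (log2(FPKM + 1) scale, ± SE) at sampling points 1 to 5 for 8 genes, with point 1 in red. In each panel point 1 has the lowest value, for example -1.83 for Lpin1 against -0.18 to 2.17 at the other points. Most of these genes were named for low values at point 1 or a departure there, which in part sets this order. Ddit4 and Mbd1 lie above 0 at points 2 to 5.

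Some genes that were lower at point 1 were higher with insulin at the other points. Mbd1, a methyl-CpG binding protein, measured 9.08, 9.28 and 6.27 FPKM with insulin and 13.4, 17.2 and 10.8 FPKM with PBS at point 1 (-0.68 ± 0.17; adjusted p = 0.323), and departed by -1.71 (adjusted p = 1.97e-05). Its differences at points 2 to 5 were 1.17, 1.22, 1.07 and 0.64. Tat and Ddit4 had the same pattern, with departures of -1.52 and -2.59 (adjusted p = 0.00117 for each), and the calls of these 3 genes held under every alternative run.

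For Ppargc1a, Trp53inp1, Rcan1, Slc25a15, Mapkapk2 and Pptc7 the departure came mainly from differences at points 2 to 5, with a smaller part at point 1. Ppargc1a, at -0.40 at point 1, had -0.24, 2.64, 1.44 and 1.56 at points 2 to 5 (departure -1.75, adjusted p = 8.66e-07). Trp53inp1, a stress protein induced by p53, had -0.45 at point 1 and 1.11, 2.00, 2.15 and 2.06 at points 2 to 5 (departure -2.28, adjusted p = 8.66e-07). The calcineurin regulator Rcan1, the mitochondrial ornithine carrier Slc25a15, the kinase Mapkapk2 and the mitochondrial phosphatase Pptc7 had point 1 differences of -0.19, -0.25, -0.24 and -0.43 and departures of -1.39, -1.0, -1.08 and -1.04. Per1 (-0.83), Herpud1 (-1.15), Klf15 (-0.64) and Etnk2 (-0.79) departed at adjusted p between 0.0134 and 0.0314, and each call was lost when any of at least 2 of the 6 libraries was left out, and that of Klf15 when any of the 6 was, or without a filter on low values. The differences of Per1 at points 2 to 5 were 0.75, 0.07, -0.36 and -0.49, that at point 5 passed the test (adjusted p = 0.0326), and its departures from points 4 and 5 taken singly did not (adjusted p = 0.394 and 0.512). Among genes higher at point 1, Ralgps2 departed by 1.29 (adjusted p = 0.00423) with differences of -0.18, -0.73, -0.55 and -0.84 at points 2 to 5, and Bmp2k by 0.56 (adjusted p = 0.0312), the second call being lost without 5 of the 6 libraries in turn.

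The medians of some lists followed these genes. Glucocorticoid receptor targets had medians of -0.45, -0.07, -0.06, 0.34 and 0.51 at points 1 to 5, and CREB targets -0.12, 1.16, 0.45, 0.48 and 0.23, while over all genes tested the medians were -0.06, -0.13, -0.15, -0.15 and -0.18. Of the 19 receptor targets, 7 departed with a more negative and 0 with a more positive difference at point 1, beside 0.596% and 0.331% of all genes. Of the 17 gluconeogenic genes the numbers were 4 and 0, and the list medians were -0.31, -0.21, -0.09, -0.07 and -0.07. The urea cycle and amino acid list was not particular to point 1, with medians of -0.30, -0.30, -0.22, -0.26 and -0.35. Of its 21 genes 1 departed with a more negative and 0 with a more positive difference. Within treatments, 1447 genes (12.0%) differed between point 1 and the mean of the other points with insulin and 375 (3.11%) with PBS. These counts share libraries with the differences above and are given as descriptions.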

How the data were processed

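Per the submitters' processing notes, HISAT2 2.1.0, SAMtools 1.9 and StringTie 2.0.3 were used on GRCm38 (mm10), and the authors deposited FPKM per gene for 30 libraries. The sources used here name neither the annotation nor the strand setting (both not given), so overlapping genes and near-identical copies are uncertain. No column lacked a sample. Empty cells (32.2%) were set to 0 FPKM, which touched 134 tested genes at point 1. Depth was inferred from low values of genes, which step by 1 read. At the chosen depth 39.1% to 46.1% of values were whole within 0.05, so no reads were recovered and no count test was run.

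Groups came from the sample titles. Genes at 1 FPKM or more in 3 of the 6 point 1 libraries were kept, and 13 reached that level only with insulin and 29 only with PBS. Values were fitted as log2(FPKM + 1) with limma 3.58.1 in R 4.3.3, over all 30 libraries, with 10 group means, a trend of variance with level and 20 residual degrees of freedom. Tests were two-sided, with Benjamini-Hochberg adjustment over 12075 genes and a threshold of 0.05, and were tested on simulated data. Exact permutation tests used SciPy 1.17.1.

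The comparison and the gene lists were chosen with earlier results of these data known. The rule for named genes took every called gene, the 12 wholly higher and 12 wholly lower genes of smallest p (symbol, mean of 2 FPKM or more), textbook insulin targets, the 4 members of smallest p per list, the Lpin and metallothionein genes, and the 8 genes departing most from points 2 to 5. Genes withheld from reporting were left out of these and are not reported here. Other list members, Tsc22d3 among them, were named after their values were seen. Promoters were taken from RefSeq on GRCm38.p6 by symbol. Positions of genes came from GENCODE M21. Alternatives were another pseudocount, other filters and scalings, a fit of 6 libraries, a replicate block, lane as a random effect, array weights and each library left out.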

Additional observations from a re-analysis of the deposited data

Results flagged for a closer look

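The insulin difference at point 1 departed from the mean difference at points 2 to 5 in 112 of 12075 genes in limma's test of the difference of differences. These results were picked out because the effect of the same treatment differed between sampling points. Among the named genes, Lpin1 departed by -2.48, Lpin2 by -0.75, Mt1 by -1.97 and Mt2 by -2.20 on the log2 scale. Of the fasting and stress regulators, Ppargc1a departed by -1.75, Trp53inp1 by -2.28, Ddit4 by -2.59, Herpud1 by -1.15, Klf15 by -0.64, Foxo1 by -0.80 and Foxo3 by -0.64. Of the enzymes and carriers, Tat departed by -1.52, Slc25a15 by -1.0, Etnk2 by -0.79 and Acly, the citrate-cleaving enzyme of lipid synthesis, by -0.62. Of the signalling and chromatin genes, Mbd1 departed by -1.71, Rcan1 by -1.39, Mapkapk2 by -1.08, Pptc7 by -1.04 and Per1 by -0.83. These calls were not equally firm. Foxo1 was called in 11, Foxo3 in 8 and Acly in 11 of 15 alternatives, with limma's adjusted p up to 0.118, 0.183 and 0.0804.

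Departures in the positive direction numbered 40, against 72 negative ones, a split that turned to 61 positive and 49 negative without insulin replicate 1. Ralgps2 departed by 1.29, Ddb2 by 1.10, Bmp2k by 0.56 and Osgin1, a growth inhibitor induced by oxidative stress, by 1.9. Ddb2 was called in only 6 of 14 alternatives, with limma's adjusted p up to 0.234. Osgin1 measured 24.5, 12.5 and 35.1 FPKM with insulin and 11.5, 15.4 and 30.1 FPKM with PBS at point 1, where its groups overlapped, and its differences at points 2 to 5 were -2.25, -1.75, -1.74 and -0.59.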

How the results depend on the processing

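At point 1 the number of genes called was 1 (0 higher, 1 lower). It was 3 with a pseudocount of 0.1 (1 higher, 2 lower), 3 without a filter (2 higher, 1 lower), 3 with median-ratio scaling (1 higher, 2 lower), 4 with quantile normalization (1 higher, 3 lower), 2 with array weights (2 lower) and 0 in limma on the 6 libraries alone, where 663 genes had an unadjusted p below 0.05. With each library left out in turn it ranged from 0 to 74 (0 to 4 higher, 0 to 70 lower), and in the 3 cases of 0 between 465 and 1088 genes had an unadjusted p below 0.05. The cause of these changes was not tested.

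Replicate numbers gave no clear sign of pairing. Same-numbered insulin and PBS libraries of point 1 deviated from their group means with correlations of -0.024, 0.020 and -0.129. Libraries of different number had -0.074 to 0.102 there, and same-numbered ones -0.109 to 0.125 at points 2 to 5. With 3 libraries a group these values cannot exclude pairing. With the replicate block 5 genes were called in the fit of 30 libraries (1 higher, 4 lower) and 2 in the fit of 6 (2 lower, Mt1 and Mt2). With the block in the fit of 30 libraries, positive departures from points 2 to 5 numbered 81 against 40, and departures from point 5 236 against 134.

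Departures from the mean of points 2 to 5 numbered 112 (40 positive, 72 negative). They fell to 72 without a filter (24 positive), negative ones rose to 112 after median-ratio scaling and 114 after quantile normalization, and leaving out a library gave 50 to 110 (13 to 61 positive, 33 to 58 negative). Departures from point 2 numbered 37, 19 among genes averaging at least 5 FPKM, and 22 to 35 with a library left out. Those from point 3 numbered 89 (48 to 91 with a library left out), those from point 4 103 (57 without a filter, 54 to 104) and those from point 5 134 (72 without a filter, 59 to 169).

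Some differences turned in sign, none of them past the threshold. That of G6pc was 0.03 after median-ratio scaling and 0.08 after quantile normalization, and that of Hsd11b1 0.00 with quantile normalization. With a library left out they ranged from -0.32 to 0.19 for G6pc, -0.59 to 0.02 for Srebf1, -0.99 to 0.36 for Igfbp1, -0.10 to 0.52 for Irs2, -0.35 to 0.01 for Serpina6, -0.38 to 0.02 for Spry1 and -0.04 to 0.20 for Srd5a1. The depth of 20.5 to 38.1 M reads limits genes of a few FPKM, and intervals could not be given because counts were not recovered.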

Other observations

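The largest differences at point 1 among non-overlapping genes, named here after their values were seen, belonged to gene models without a proper symbol. Gm38303 had no value in the 3 insulin libraries, where the empty cells were set to 0, and 9.82, 5.25 and 3.23 FPKM in the PBS libraries, with an adjusted p of 0.53. Gm20708 measured 1.85, 0.828 and 1.71 FPKM with insulin and 33.7, 6.03 and 4.57 FPKM with PBS (adjusted p = 0.495), and Gm15611 19.9, 7.07 and 19.6 FPKM with insulin and 4.73, an empty cell set to 0, and 6.53 FPKM with PBS (adjusted p = 0.594). In each of them 1 or 2 libraries carried most of the difference or the level was near the filter.

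Interferon response genes had 4 of 18 tested members wholly lower with insulin at point 1, beside 6.53% of all genes: Irf7, Isg15, Tap1 and Gbp3. Isg15, a ubiquitin-like antiviral protein, measured 3.81, 3.94 and 4.52 FPKM with insulin and 5.52, 6.09 and 5.76 FPKM with PBS (-0.42 ± 0.28; adjusted p = 0.714). No member passed the test, and the list median was -0.11 at point 1 beside -0.65, -0.26, -1.15 and -0.39 at points 2 to 5.

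Mir6236, a microRNA gene model, was at 4831, 1712 and 1249 FPKM with insulin and 801, 1184 and 1121 FPKM with PBS at point 1, wholly higher with insulin and highest in insulin replicate 1 (adjusted p = 0.649). In that library the 10 most abundant genes held 25.8% of the summed FPKM. The values are reads over the gene model in RNA selected for poly(A) tails, and the mature microRNA was not measured.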
